A study of Mus musculus with 24 samples.

Results

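The CpGs described here lie at 9 genes for transcription factors of adult neurogenesis, namely Sox2, Pax6, Neurog2, Eomes, Tbr1, Neurod1, Sox11, Neurod2 and Prox1. A CpG was taken when it lay inside the GENCODE M21 span of one of these genes on GRCm38 or within 2 kb of that span. This gave 629 of the 694379 CpGs measured by reduced representation bisulfite sequencing (RRBS), which reads DNA cut at CCGG so that CpG-rich sequence is enriched. Of these, 355 lay within 1 kb of a transcript start and are called promoter CpGs, 185 lay elsewhere in a gene and are called body CpGs, and 89 lay outside the span and are called flank CpGs.

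DNA came from the micro-dissected dentate gyrus of 24 female C57BL/6JRj mice with no transgene stated. Standard cages (STD) held the 8 young STD mice, aged 3 months, and the 8 aged STD mice, aged 17 months. The 8 aged ENR mice were also 17 months old and had spent their last 3 months in an enriched environment (ENR), a large shared enclosure with tunnels and toys. ENR mice are housed together by this design, so that the housing and the particular enclosure cannot be told apart. The study asked whether methylation differed between aged STD and young STD mice (aging) and whether it differed between aged ENR and aged STD mice (ENR). Both comparisons use the same aged STD mice and are therefore not independent.

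In the adult dentate gyrus, neural stem cells divide into intermediate progenitors, which give rise to immature and then mature granule neurons. Sox2 and Pax6 are known from the stem cells, Neurog2 and Eomes (also called Tbr2) from intermediate progenitors, and Neurod1 and Sox11 from late progenitors and immature neurons. Tbr1 follows Eomes in the production of glutamatergic neurons, Neurod2 acts in maturing glutamatergic neurons, and Prox1 specifies and maintains granule neuron identity. Cytosines followed by guanine can carry a methyl group, and CpG-dense start sites of developmental regulators are typically kept free of it. Dissected tissue mixes many cell types, most of them granule neurons, so that a change in methylation within cells and a change in the makeup of cells cannot be told apart here.

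The table held percentages of methylated reads without read numbers, so the depth behind each value was unknown. A young STD mouse had a value at 290 to 441 of these CpGs, an aged STD mouse at 288 to 509 and an aged ENR mouse at 280 to 570, and only 6 CpGs were measured in all 24 mice. Between 72.3% and 95.0% of the values at these CpGs in a mouse were exactly 0 or 100. Over the 8628 CpGs of the whole table that had a value in every mouse, aged STD mouse 5 stood lowest with a mean of 42.4%, and the other mice lay between 44.99% and 47.5%.

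Sequences of the start regions with the most measured CpGs are given first, followed by the levels in them. They were taken from RefSeq on GRCm38.p6, which matched all 9 genes and 11 start sites, and each shows 250 bases before a start on the strand of the gene, 5′ to 3′, with every CG in capitals. The 4 starts shown are those at which 5 or more CpGs were measured between 250 bases before and 50 bases after the start.
Prox1, minus strand, chr1:190170828-190171077: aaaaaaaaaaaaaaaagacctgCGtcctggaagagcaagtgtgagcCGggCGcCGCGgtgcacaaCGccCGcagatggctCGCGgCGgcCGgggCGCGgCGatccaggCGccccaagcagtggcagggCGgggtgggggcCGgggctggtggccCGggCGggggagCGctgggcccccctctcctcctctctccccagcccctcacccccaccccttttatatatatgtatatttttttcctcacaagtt
Pax6, plus strand, chr2:105682213-105682462: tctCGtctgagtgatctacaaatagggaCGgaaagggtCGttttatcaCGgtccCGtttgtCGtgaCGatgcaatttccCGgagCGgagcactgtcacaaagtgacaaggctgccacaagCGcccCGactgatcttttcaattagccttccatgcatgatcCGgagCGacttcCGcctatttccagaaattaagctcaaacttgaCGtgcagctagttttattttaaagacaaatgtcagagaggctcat
Neurod2, minus strand, chr11:98329646-98329895: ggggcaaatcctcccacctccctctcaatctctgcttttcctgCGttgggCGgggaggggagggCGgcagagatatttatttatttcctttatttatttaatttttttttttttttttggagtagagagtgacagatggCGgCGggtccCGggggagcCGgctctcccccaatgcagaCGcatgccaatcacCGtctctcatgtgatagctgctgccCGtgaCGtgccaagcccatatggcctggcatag
Sox11, minus strand, chr12:27342719-27342968: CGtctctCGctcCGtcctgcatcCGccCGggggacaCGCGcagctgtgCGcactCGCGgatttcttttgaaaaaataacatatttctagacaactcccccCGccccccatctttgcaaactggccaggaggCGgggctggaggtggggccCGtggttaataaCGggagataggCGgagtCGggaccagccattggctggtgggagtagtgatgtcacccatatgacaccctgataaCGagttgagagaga
In these windows the mean level of the measured CpGs ran from 0 to 3.49% at Prox1 (6 CpGs), from 0 to 21.1% at Pax6 (18 CpGs), from 0 to 8.83% at Neurod2 (10 CpGs) and from 0 to 4.06% at Sox11 (5 CpGs). The letters CCGG, which read the same on both strands and are the cut site of the assay, occurred in 10 of the 11 windows of 300 bases around the starts and in 52.8% of 32851 RefSeq mouse promoter windows of that length. At the starts in RefSeq of Neurod1, Sox2, Neurog2 and Tbr1 no CpG was measured inside this window. The promoter CpGs of each gene were taken within 1 kb of the GENCODE starts, which can differ from those in RefSeq.

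Methylation at the 9 genes was low. The level of a CpG is the mean of the 3 group means, and 472 CpGs (75.04%) lay under 10%, 149 (23.7%) between 10% and 90%, and 8 (1.27%) over 90%. Over all 694379 CpGs these shares were 47.4%, 29.97% and 22.6%. Bodies and flanks differed most, with a median level of 2.86% at the 185 body CpGs against 76.4% at all body CpGs and of 6.11% at the flank CpGs against 52.8%, whereas the promoter medians were 0.356% here and 0.113% over all promoter CpGs. Of the body CpGs, 59 of 185 (31.9%) were at 0 in every mouse with a value, against 6.05% of all body CpGs, and of the promoter CpGs 167 of 355 (47.0%) were, against 49.1%. CpG density went with this split, since 375 of the 406 CpGs in a CpG-rich window (100 bases to each side, at least 50% GC and an observed-to-expected CpG ratio of at least 0.6) lay under 10%, but only 97 of the 223 outside such windows did.

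**Figure D1:**
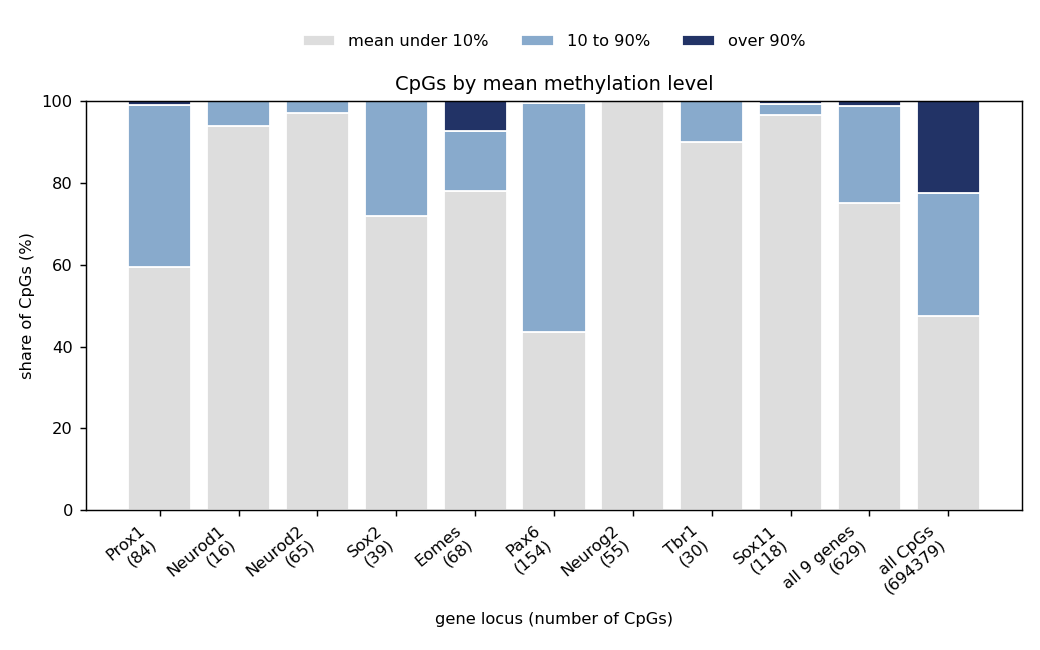
Share of CpGs (percent, y axis) with a mean level under 10%, from 10 to 90% and over 90% at each of the 9 genes and over all CpGs of the table (x axis). All 55 Neurog2 CpGs lay under 10%, while 67 of the 154 at Pax6 did.

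By gene, the share under 10% was 55 of 55 CpGs at Neurog2, 63 of 65 at Neurod2, 114 of 118 at Sox11, 15 of 16 at Neurod1 and 27 of 30 at Tbr1. It was 53 of 68 at Eomes, 28 of 39 at Sox2, 50 of 84 at Prox1 and 67 of 154 at Pax6. Prox1 and Pax6, which mark opposite ends of the lineage as it is usually drawn, thus held most of the partly methylated CpGs. Introns carried much of this, as 69 of the 112 intronic CpGs lay between 10% and 90% and 42 under 10%.

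A region value was computed in each mouse from its covered CpGs after removing the level differences between CpGs, and it is given in percent. It can fall slightly below 0 or rise above 100 because the level of the region is added back afterwards. Promoter levels over the mice were 1.00 ± 1.16% at Neurog2 (SD, n = 23), 1.07 ± 1.26% at Sox11 (SD, n = 24), 1.18 ± 2.13% at Sox2 (SD, n = 24) and 1.83 ± 1.67% at Prox1 (SD, n = 24). Those at Neurod2 (2.77 ± 3.76%, SD, n = 20), Eomes (3.17 ± 2.78%, SD, n = 24) and Tbr1 (3.41 ± 5.08%, SD, n = 22) followed, and Pax6 was at 13.7 ± 4.89% (SD, n = 24). None of the neighbours in this order up to Tbr1 differed beyond the spread of the difference within mice. The step from Tbr1 to Pax6 was 10.47 points (SD of the difference 6.60), with Pax6 higher in 20 of 22 mice. Neurod1 had 1 promoter CpG, at 0%, which is too few for a region value.

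Body levels fell into 3 sets. Neurod2 (0.964 ± 2.54%, SD, n = 24), Sox11 (1.72 ± 1.81%, SD, n = 24), Neurod1 (2.30 ± 4.43%, SD, n = 21), Tbr1 (2.51 ± 5.14%, SD, n = 24) and Neurog2 (3.02 ± 3.37%, SD, n = 21) did not differ from their neighbours in the order beyond the spread. The body of Prox1 was at 24.1 ± 7.11% (SD, n = 24), 21.2 points above Neurog2 (SD of the difference 7.58) and higher in 21 of 21 mice. Pax6 followed at 28.4 ± 15.4% (SD, n = 24), within the spread of Prox1, and Eomes at 85.6 ± 25.6% (SD, n = 14) was above Pax6 in 13 of 14 mice. No body CpG was measured at Sox2, a gene with a single exon whose span outside the promoter is 1056 bp long and holds 1 CCGG.

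**Figure D2:**
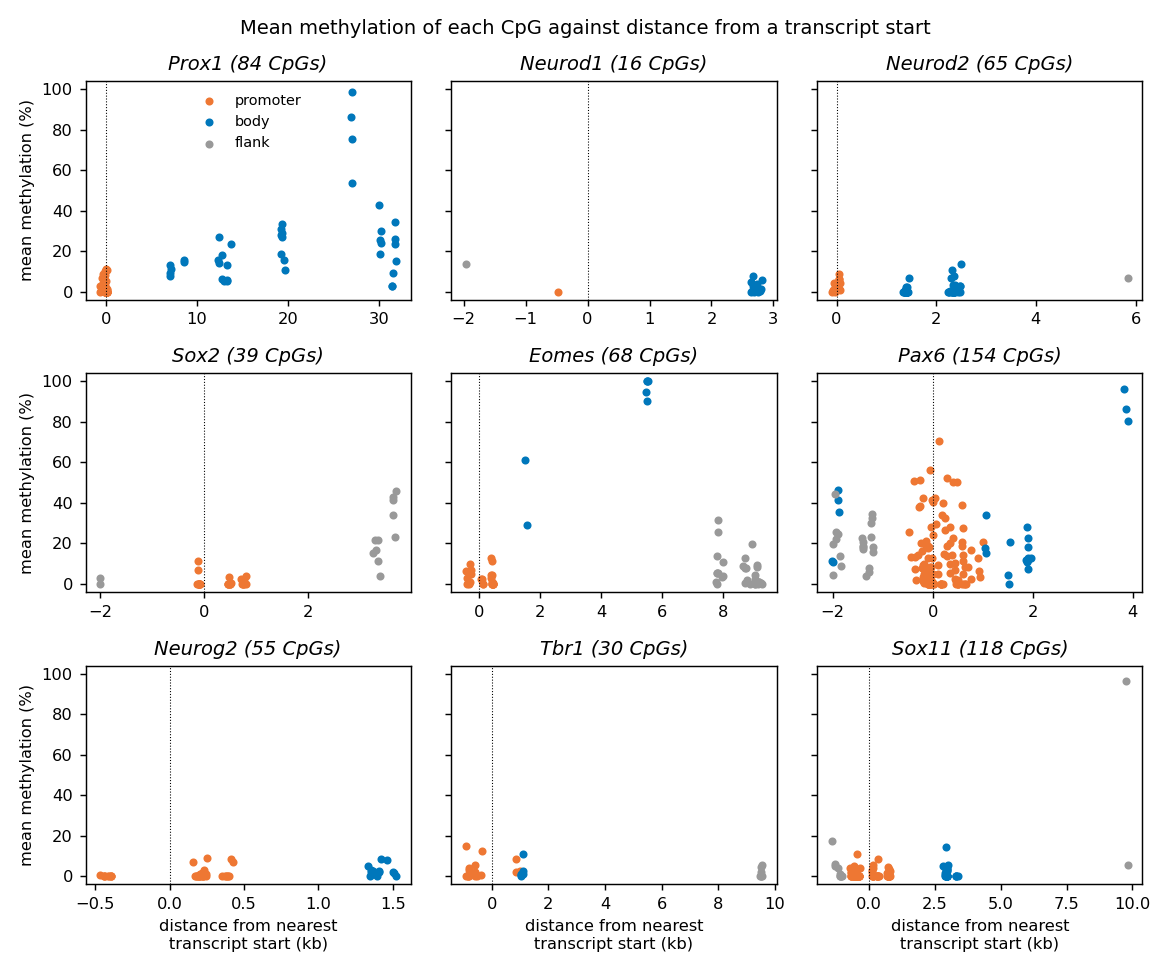
Mean level of each CpG (percent, y axis) against its distance from the nearest transcript start of its gene (kb, x axis), with promoter, body and flank CpGs coloured apart. The 8 CpGs over 90% lie more than 1 kb from a start, while most CpGs within 1 kb lie near 0.

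Stem cell factors were measured as follows. Sox2, which keeps neural stem cells in the undifferentiated state, lies on chromosome 3 (plus strand, 34650405 to 34652461) inside the noncoding gene Sox2ot, and its coding exon carried a block of 16 CpGs at 0.680%. Downstream of the gene, blocks of 6 and 5 CpGs stood at 17.2% and 38.0%. Pax6, a paired-domain factor of stem cells and early progenitors, lies on chromosome 2 (plus strand, 105668900 to 105697364), has 24 annotated transcript starts and overlaps Pax6os1. Its promoter CpGs were not alike. Blocks of CpGs no more than 200 bp apart were at 2.01% (9 CpGs at position 105668912 to 105669154), 2.46% (13 CpGs at 105675295 to 105675450) and 2.57% (16 CpGs at 105676573 to 105676790). Others were at 30.6% (13 CpGs of a 5′ UTR at 105674026 to 105674409) and 30.9% (7 CpGs at 105681664 to 105681751). The 24 CpGs around 105681989 to 105682418, which include those in the Pax6 sequence printed above, had a mean of 9.80%, with single CpGs from 0 to 52.4%.

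Progenitor factors came next, with Tbr1 beside the related Eomes. Neurog2, a proneural basic helix-loop-helix factor (chromosome 3, plus strand, 127633135 to 127635631), had no CpG above 8.89% among 55. Eomes, a T-box factor of intermediate progenitors (chromosome 9, plus strand, 118478212 to 118486132), was at 3.44% over 10 CpGs upstream and 2.69% over 14 CpGs of its first coding exon. Tbr1, the related T-box factor of young glutamatergic neurons (chromosome 2, plus strand, 61802930 to 61814114), had no CpG above 14.8%. Farther inside Eomes, 5 CpGs of a coding exon were almost fully methylated. Their block value was 100% in each of the 3 young STD mice with a value, 97.1%, 100% and 100% in 3 aged STD mice, and 90.6%, 92.3% and 93.8% in 3 aged ENR mice. The 3 aged ENR mice thus lay below the others, but blocks were described only and this one, covered in 9 mice, was not tested. Of its 5 CpGs, 1 was lower by more than 25 points with ENR (-28.6 points). The median ENR difference of the 7 Eomes body CpGs was 0. How many other blocks had groups without overlap was not counted.

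Neuronal factors had mostly low levels, with Prox1 and a single CpG downstream of Sox11 at 96.6% as exceptions. Neurod1 (chromosome 2, minus strand, 79452521 to 79456751) and Neurod2 (chromosome 11, minus strand, 98325415 to 98329648) are basic helix-loop-helix factors of neuronal differentiation, and 26 CpGs of the Neurod2 coding exon were at 0.471%. Sox11 (chromosome 12, minus strand, 27334264 to 27342574), an SRY-box factor of immature neurons, had 77 promoter CpGs, of which 76 lay under 10%. Prox1, a homeobox factor (chromosome 1, minus strand, 190118035 to 190170714), was at 1.79% over 35 CpGs at its start, on the 5′ UTR and just upstream. The Prox1 intron blocks between 190137536 and 190157066, in contrast, had values from 4.81% to 78.9%.

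The 3 blocks of at least 3 CpGs over 70%, shown because they are the exceptions to the low levels of these genes, are printed here on the strand of the gene, 5′ to 3′ on GRCm38, with the measured CG in capitals.
Prox1 intron, minus strand, chr1:190142338-190142412, 4 CpGs, 78.9 ± 17.4% (SD, n = 14): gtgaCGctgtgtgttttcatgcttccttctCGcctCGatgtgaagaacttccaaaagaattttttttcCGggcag
Eomes coding exon, plus strand, chr9:118484314-118484387, 5 CpGs, 97.1 ± 3.85% (SD, n = 9): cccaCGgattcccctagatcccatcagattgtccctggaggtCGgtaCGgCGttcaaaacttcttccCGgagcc
Pax6 coding exon, plus strand, chr2:105696305-105696385, 3 CpGs, 87.0 ± 20.1% (SD, n = 15): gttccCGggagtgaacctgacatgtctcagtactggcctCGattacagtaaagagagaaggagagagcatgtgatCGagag
All 3 lie inside a gene and away from its starts, and each ends or begins near a CCGG, the cut site of the assay.

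With aging, no promoter or body of the 9 genes passed the test. Of their 16 tested regions, 6 were higher and 10 lower in aged STD than in young STD mice, with a median difference of -0.47 points against -0.09 over all 32180 regions. limma with Benjamini-Hochberg adjustment over all regions called 0 of the 16, and 0% of all regions were called. An unadjusted limma p under 0.05 was reached by 1 of the 16 against 5.44% of all regions. With ENR, 7 of the 16 regions were higher and 9 lower in aged ENR than in aged STD mice, with a median of -0.31 points against -0.20 over all regions. limma called 0 of the 16 against 0.00932% of all regions, and 2 had an unadjusted p under 0.05 against 4.58%. Between aged ENR and young STD mice, limma again called 0 of 16 against 0.0155%, and 0 had an unadjusted p under 0.05 against 5.16%. The groups overlapped at all 16 regions in each comparison, and they did not overlap at 0.311%, 0.239% and 0.27% of all regions with aging, with ENR and between aged ENR and young STD mice.

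**Figure D3:**
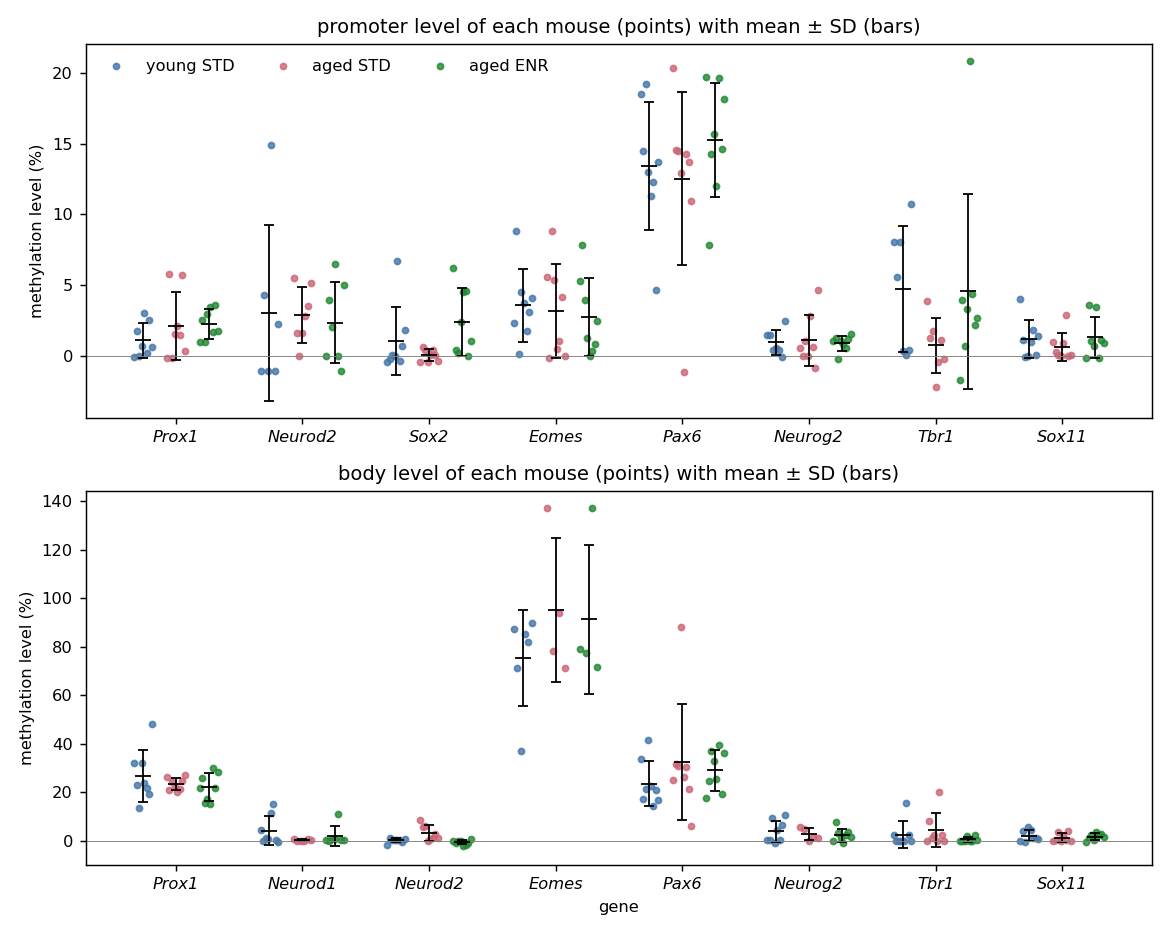
Region value (percent, y axis) of each mouse for the promoter and body of the 9 genes, with the 3 groups side by side and bars at the group mean ± SD. The groups overlap in every panel, and single mice stand far from their group at the bodies of Eomes and Pax6.

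Among the stem cell factors, the Sox2 promoter ran from -0.40% over a median of 0.04% to 6.69% in young STD mice and from -0.40% over 0.08% to 0.63% in aged STD mice. The aged ENR mice ran from -0.01% over a median of 1.72% to 6.24%. The aged ENR mice thus reached higher values than the aged STD mice, but both overlapped each other and the young STD group. The ENR difference was 2.36 points (SE 1.04, limma adjusted p = 0.947, exact two-sided permutation p = 0.00855 before adjustment) and the aging difference -0.98 points (SE 1.04, limma adjusted p = 0.906). Without aged ENR mouse 5 the ENR difference was 1.81 points, and without young STD mouse 5 the aging difference was -0.20 points.

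Young STD mice had Pax6 promoter values from 4.67% to 19.2% with a median of 13.3%. The aged STD mice ranged from -1.084% to 20.3% (median 13.97%), and the aged ENR mice from 7.86% to 19.7% (median 15.1%). The groups covered one another almost completely. The aging difference was -0.88 points (SE 2.45, limma adjusted p = 0.975) and the ENR difference 2.73 points (SE 2.45, limma adjusted p = 0.947). The lowest value, -1.084%, belonged to aged STD mouse 5, which was also lowest over the whole table, and without it the differences were 1.081 and 0.79 points.

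In the Pax6 body, young STD mice ran from 14.5% to 41.7% with a median of 21.2%, and aged STD mice from 5.96% to 88.3% with a median of 28.4%. The aged ENR mice, with a median of 29.1%, lay between 17.5% and 39.6%. A single mouse, aged STD mouse 4, set the upper end. The aging difference of 8.89 points (SE 7.64, limma adjusted p = 0.891) became 0.95 points without it, and the ENR difference went from -3.45 (SE 7.64, limma adjusted p = 0.981) to 4.36 points. Leaving out aged STD mouse 8 instead made the ENR difference -7.56 points.

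Among the progenitor factors, the Neurog2 promoter differed by 0.15 points with aging (SE 0.74) and by -0.21 points with ENR (SE 0.72). Its body differed by -1.22 points (SE 1.98) and -0.42 points (SE 1.98). The Eomes promoter, with group medians of 3.44%, 2.61% and 1.88%, differed by -0.41 points (SE 1.46) and -0.42 points (SE 1.46). All 6 of these differences were smaller than their standard errors, and 5 of them changed sign when some single mouse was left out. The other, that of the Neurog2 body with aging, was -0.33 points without young STD mouse 3.

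The Eomes body had a value in few mice. Young STD mice (n = 6) ran from 37.1% to 89.7% with a median of 83.6%. The aged STD values were 71.4%, 78.1%, 93.7% and 137%, and the aged ENR values 71.5%, 77.4%, 79.0% and 137%. Values of 137% arise where a mouse covered only the 2 less methylated intronic CpGs and had them fully methylated. The aging difference was 19.6 points (SE 15.95, limma adjusted p = 0.888) and the ENR difference -3.81 points (SE 17.5, limma adjusted p = 0.998), so that this body could not resolve a difference below the spread of its mice. Single mice moved these values by more than 1.5 times. Without aged STD mouse 1, the aging difference was 3.99 points and the ENR difference 10.8 points, and without aged ENR mouse 6 the ENR difference was -21.1 points.

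Tbr1 promoter values of the young STD mice ran from 0.06% to 10.7% around a median of 5.56%. They were -2.16% to 3.90% (median 1.17%) in the aged STD group and -1.70% to 20.8% (median 3.01%) in the aged ENR group. Of the 7 aged STD mice, 3 lay below every young STD mouse and the other 4 within the range of that group. The aging difference was -3.97 points (SE 2.62, limma adjusted p = 0.886, exact permutation p = 0.0565 before adjustment) and the ENR difference 3.80 points (SE 2.54, limma adjusted p = 0.947). Without aged ENR mouse 5 the ENR difference was 1.12 points. In the Tbr1 body the differences were 1.76 points with aging and -3.72 points with ENR (SE 2.53 each). Without aged STD mouse 6 they were -0.53 and -1.29 points.

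Among the neuronal factors, the Neurod2 body had the smallest limma p in both comparisons. Its values ran from -1.59% over a median of 0.38% to 1.03% in young STD mice, from -0.15% over 2.03% to 8.66% in aged STD mice, and from -1.98% over -0.43% to 0.75% in aged ENR mice. The upper values were all aged STD, but the lowest aged STD mice lay within the other groups. The aging difference was 3.10 points (SE 1.04, limma unadjusted p = 0.00669, adjusted p = 0.843, exact permutation p = 0.0103). The ENR difference was -3.87 points (SE 1.04, limma unadjusted p = 0.00115, adjusted p = 0.947, exact permutation p = 0.0014). Neither passed the adjustment over all regions, which was made in each comparison apart. The same aged STD mice enter both differences, which are therefore not independent.

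These differences rested partly on 1 CpG, at position 98327144 of chromosome 11 in the 3′ UTR of Neurod2. Without it, a setting chosen after the values were seen, the aging difference was 1.62 points (exact permutation p = 0.159) and the ENR difference -2.31 points (exact permutation p = 0.0221). Aged STD mouse 1 had 98.0% at this CpG and a mean of 18.2% over the 11 other CpGs it covered in the same block. Aged STD mouse 3 had 100% at the CpG and 0% at its 12 other CpGs, while aged STD mouse 2 had 0% at the CpG, a mean of 8.58% at the others and up to 92.6% at one of them. The CpG was thus almost fully methylated in aged STD mice 1 and 3, while the highest value of aged STD mouse 2 lay at another CpG.

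Other regions of the neuronal factors were not called either. The Neurod2 promoter differed by -0.16 points with aging (SE 2.19) and -0.55 points with ENR (SE 2.10), and without young STD mouse 5 the aging difference was 1.61 points. Its ENR difference ran from -1.18 points without aged STD mouse 4 to -0.02 points without aged ENR mouse 7. The Neurod1 body had group medians of 0.85%, 0.17% and 0.53% and differed by -3.92 points (SE 2.32, limma adjusted p = 0.886) and 1.801 points (SE 2.39, limma adjusted p = 0.962). Without aged ENR mouse 6 its ENR difference was 0.35 points, and without young STD mouse 6 its aging difference was -2.50 points. The 2 Sox11 regions differed by -0.53 and -0.70 points with aging and by 0.67 and 0.32 points with ENR, each by less than its standard error. Leaving out single mice, the promoter differences ran from -0.87 to -0.06 points with aging and from 0.31 to 0.96 points with ENR, and those of the body from -1.11 to -0.23 and from 0.0015 to 0.70 points. Sox11 promoter aging was nearest 0 without young STD mouse 1 and body ENR without aged ENR mouse 5.

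Prox1 showed no called difference in either of its regions. Its promoter had a median of 0.68% in the young STD mice, 1.53% in the aged STD and 2.17% in the aged ENR mice, and differed by 0.98 points with aging (SE 0.90, limma adjusted p = 0.895) and 0.16 points with ENR (SE 0.90). Without aged STD mouse 2 these were 0.37 and 0.75 points, and without aged STD mouse 3 the ENR difference was -0.16 points. In the Prox1 body the young STD mice spread most, from 13.6% to 48.0% around a median of 23.5%. Aged STD values lay between 20.1% and 27.3% (median 23.3%) and aged ENR values between 15.1% and 30.2% (median 21.8%). Its aging difference was -3.36 points (SE 3.49, limma adjusted p = 0.905) and its ENR difference -1.33 points (SE 3.49, limma adjusted p = 0.986). Without young STD mouse 8 the aging difference was -0.15 points, and without young STD mouse 3 it was -5.66 points. The ENR difference was -2.56 points without aged ENR mouse 6 and -0.31 points without aged ENR mouse 5.

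Single CpGs moved by more than 25 points, the size criterion of the study applied here without its read-level test, at 46 CpGs with aging (7.31%, against 9.16% of all CpGs). Of these, 24 were higher in aged STD mice (background 4.15%) and 22 lower (background 5.01%). With ENR, 39 CpGs passed this size (background 8.33%), 23 higher (background 3.82%) and 16 lower (background 4.51%) in aged ENR mice. Between aged ENR and young STD mice it was also 39 CpGs (background 8.43%), 23 higher (background 3.43%) and 16 lower (background 4.99%). The differences ran from -54.6 to 55.4 points with aging and from -51.4 to 59.4 points with ENR, around a median of 0 in both.

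Where these CpGs lay followed the levels. With aging, 24 were at Pax6 (14 higher, 10 lower), 14 at Prox1 (6 higher, 8 lower), 3 at Eomes, 2 at Sox2 and 1 each at Neurod2, Tbr1 and Sox11, with 0 at Neurod1 and Neurog2. With ENR, 21 were at Pax6 (13 higher, 8 lower), 11 at Prox1 (6 higher, 5 lower), 3 each at Sox2 and Eomes and 1 at Neurod2. None of the 472 CpGs with a level under 10% passed 25 points in either comparison, against 0.303% and 0.265% of all CpGs at such levels, so that this count was near the background. The level is the mean of the same 3 group means, so that a CpG under 10% could hardly pass 25 points at any gene. Of the 149 at 10 to 90%, 46 passed with aging (30.9%), against 29.5% of all CpGs in that range. With ENR it was 38 (25.5%, against 26.8%), and between aged ENR and young STD mice also 38 (25.5%, against 27.1%). By position, 19 of 355 promoter CpGs (5.35%, background 4.47%), 21 of 185 body CpGs (11.4%, background 14.5%) and 6 of 89 flank CpGs (6.74%, background 12.4%) passed with aging. With ENR these were 18 promoter CpGs (background 3.92%), 14 body CpGs (background 13.5%) and 7 flank CpGs (background 11.2%). Between aged ENR and young STD mice they were 16 (background 3.87%), 14 (background 13.9%) and 9 (background 11.6%).

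Few mice lay behind most of these differences. Of the 191 CpGs that 5 or more mice covered in every group, 6 passed 25 points with aging, 5 with ENR and 8 between aged ENR and young STD mice, against 5.15%, 4.72% and 4.82% of all CpGs covered so. Where both strands of a CpG had a value in a mouse, at 83 CpG pairs and 827 pairs of values, the strands lay within 10 points of each other in 74.97% and differed by more than 25 points in 16.2%, against 78.8% and 14.2% over all CpGs. Among the 186 pairs whose mean lay between 10% and 90%, 72.04% differed by more than 25 points, against 71.6% over all CpGs.

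**Figure D4:**
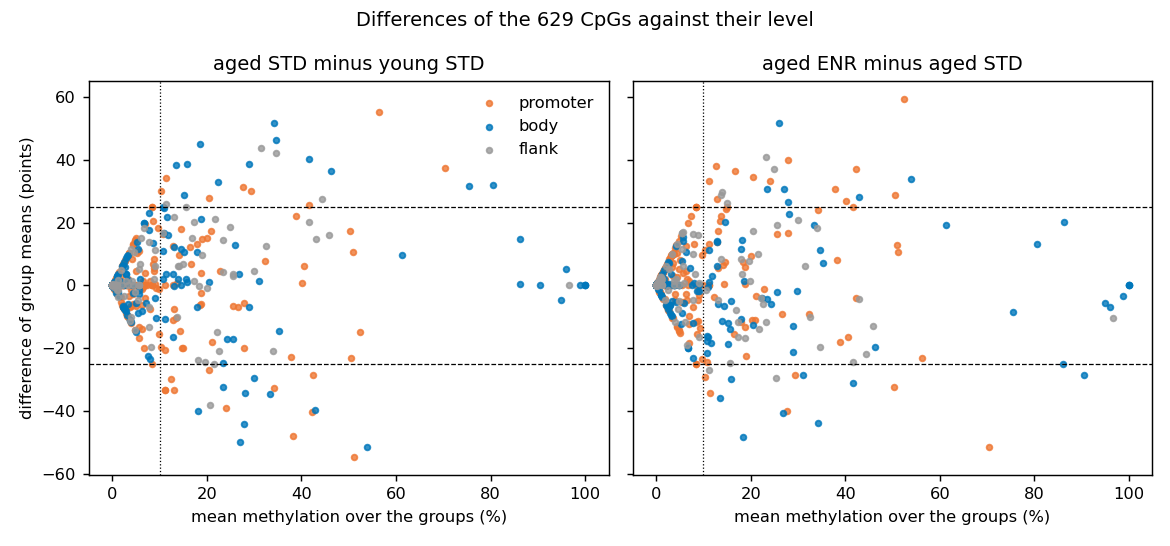
Difference of each CpG (percentage points, y axis; left, aged STD minus young STD; right, aged ENR minus aged STD) against its mean level (percent, x axis), coloured by promoter, body and flank, with dashed lines at 25 points in both directions. CpGs at low levels cluster around 0, and the 46 and 39 CpGs beyond the lines lie mostly at Pax6 and Prox1.

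Tested with mice as replicates, limma called 0 of these CpGs with aging (0.0049% of all CpGs called), 0 with ENR (0.00446%) and 0 between aged ENR and young STD mice (0.00504%), with adjusted p = 1 throughout. An unadjusted p under 0.05 was reached by 8 CpGs with aging (4 higher, 4 lower, background 2.23%), by 10 with ENR (3 higher, 7 lower, background 1.9%) and by 8 between aged ENR and young STD mice (6 higher, 2 lower, background 2.18%). Of the 8 with aging, 5 were at Pax6, 2 at Neurod2 and 1 at Prox1. Among the 629 CpGs, 239 (38.0%) were at 0 in every mouse with a value, against 26.5% of all CpGs. Such CpGs can neither be called nor pass 25 points, so that the counts here and the shares over all CpGs are not like for like.

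Printed next are the CpGs with the 4 smallest unadjusted p of aging or of ENR, among those with at least 5 mice in each group. Each is shown with 30 bases around it on the strand of the gene, 5′ to 3′ on GRCm38, the CpG itself in capitals.
Neurod2 3′ UTR, minus strand, chr11:98327130-98327159: tctttgcctttgtcCGgccccttagcccca
Neurod2 5′ UTR, minus strand, chr11:98329563-98329592: cgctctgaagacgcCGgcgcccgccgcctt
Eomes, 3′ side of the gene, plus strand, chr9:118487511-118487540: tgctaatcgcacgcCGggataaagaggact
Pax6, 5′ side of the gene, plus strand, chr2:105667472-105667501: cttgtccacagaacCGgatctccaggcgcg
Pax6, 5′ side of the gene, plus strand, chr2:105667484-105667513: accggatctccaggCGcgaagcactcagca
Sox11, 5′ side of the gene, minus strand, chr12:27343968-27343997: caccattctatgtcCGgagtggggatgtgt
At the Neurod2 3′ UTR CpG (position 98327144), all 8 young STD mice were at 0%. The 6 aged STD mice had 98.0%, 0%, 100%, 6.25%, 25.5% and 0%, and the 7 aged ENR mice had 16.5% in one and 0% in the others. Values above 16.5% occurred in aged STD mice only, but the aged STD mice at 0% overlapped both other groups. The aging difference was 38.3 points (limma p = 0.0116, adjusted p = 1, exact permutation p = 0.015) and the ENR difference -35.9 points (limma p = 0.0197, adjusted p = 1, exact permutation p = 0.0373).

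At the Neurod2 5′ UTR CpG (position 98329577), the 5 aged STD mice had 29.3%, 0%, 37.0%, 0% and 0%, while all 6 young STD and all 7 aged ENR mice were at 0%. It lies on the first exon of the gene, next to the start whose sequence is printed above. The differences were 13.3 points with aging (exact permutation p = 0.182) and -13.3 points with ENR (exact permutation p = 0.152), both with limma adjusted p = 1.

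At the Eomes CpG (position 118487525), the highest young STD value was 28.6%, the highest aged STD value 59.1% and the highest aged ENR value 8.57%, and the lowest was 0% each time. Aged STD mice reached the highest values, and mice at 0% occurred in every group. Its ENR difference was -16.3 points (limma p = 0.0419, adjusted p = 1, exact permutation p = 0.0499) and its aging difference 11.4 points (limma p = 0.16, adjusted p = 1).

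The neighbouring Pax6 CpGs, 12 bp apart upstream of the first start, differed in the sign of their aging difference. At position 105667486 the young STD mean was 38.4 ± 27.3% (SD, n = 7), beside 17.7 ± 18.1% (SD, n = 8) for aged STD and 11.8 ± 14.02% (SD, n = 8) for aged ENR. The aging difference was -20.8 points (limma p = 0.0585, adjusted p = 1), the ENR difference -5.90 points and the difference between aged ENR and young STD mice -26.6 points (limma p = 0.018, adjusted p = 1, exact permutation p = 0.0171). At position 105667498 the means were 17.9%, 27.7% and 10.95% in the same order, the aging difference was 9.85 points, the ENR difference -16.8 points (limma p = 0.0293, adjusted p = 1, exact permutation p = 0.0289) and the difference between aged ENR and young STD mice -6.94 points. The young STD mean was thus highest at the first CpG and the aged STD mean at the second, and the aged ENR mean was lowest at both. At the Sox11 CpG (position 27343983) the means were 9.20%, 29.5% and 13.0%, and the aging difference was 20.3 points (limma p = 0.0794, adjusted p = 1, exact permutation p = 0.128).

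**Figure D5:**
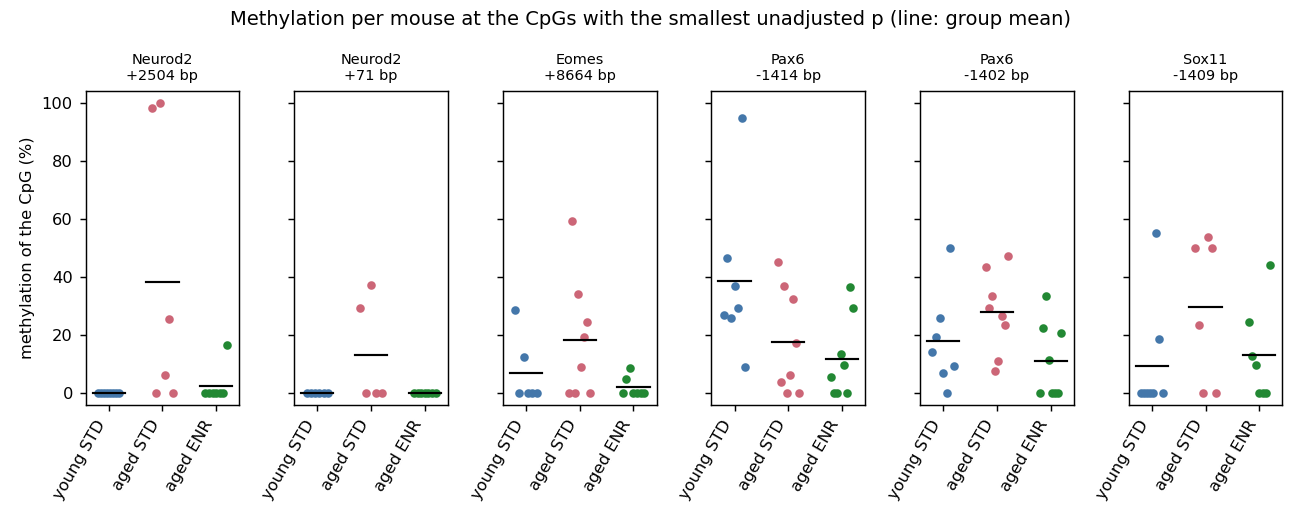
Methylation (percent, y axis) of each mouse at 6 CpGs, with the 3 groups side by side, lines at the group means and the distance from the nearest start above each panel. The 6 held the 4 smallest unadjusted limma p of aging or of ENR among CpGs with at least 5 mice per group. At the Neurod2 CpG 2504 bp past its start (position 98327144) the values near 100% come from 2 aged STD mice, and at all 6 CpGs the groups overlap.

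The 6 CpGs measured in all 24 mice were 3 at Prox1 and 3 at Tbr1. The Prox1 CpG at position 190169729 had a mean of 7.28% in the young STD mice, 1.43% in the aged STD and 4.24% in the aged ENR mice. In the same order, the one at 190171122 had 0%, 0% and 0.758%, and the one at 190171126 had 6.15%, 5.68% and 7.76%. At Tbr1, the intronic CpG at 61807272 had 0%, 0.644% and 6.55%, and the exonic CpGs at 61807315 and 61807323 were at 0% in every young STD and aged STD mouse. These were the most completely sampled CpGs of the genes, and no mean moved by more than 6.55 points between groups. The smallest p was that of Tbr1 61807272 between aged ENR and young STD mice (limma p = 0.0446, adjusted p = 1, exact permutation p = 0.0769).

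A list of 26 further transcription factors of neurogenesis was examined in the same way, of which 24 had a tested region (45 regions). limma called 0 of these 45 in each comparison, and an unadjusted p under 0.05 was reached by 8 with aging (2 higher), 2 with ENR (0 higher) and 6 between aged ENR and young STD mice (0 higher), against 5.44%, 4.58% and 5.16% of all regions. By role, 14 of 14 stem cell factors, 3 of 4 progenitor factors and 7 of 8 factors of new and granule neurons were tested. Their median promoter levels were 2.14%, 1.74% and 1.64%, beside 2.30% at the member genes and 3.11% over all promoter regions. Median body levels were 7.86%, 2.62% and 10.9%, beside 2.75% at the member genes and 72.6% over all body regions. Single body levels ran from 1.54% to 98.0% at the stem cell factors, from 1.87% to 21.8% at the progenitor factors and from 0.701% to 44.0% at the factors of new and granule neurons.

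Markers of the cell types in the dissected tissue were counted likewise, with a region tested for 3 of 4 granule neuron, 4 of 4 CA pyramidal neuron, 5 of 5 oligodendrocyte, 3 of 4 astrocyte, 4 of 4 microglia and 4 of 4 endothelial markers. limma called 0 regions of each list in each comparison. With aging, an unadjusted p under 0.05 was reached by 0 of 5 granule neuron, 1 of 7 CA pyramidal neuron, 1 of 7 oligodendrocyte, 1 of 6 astrocyte, 0 of 5 microglia and 1 of 6 endothelial marker regions, against 5.44% of all regions. With ENR it was 1 of 5, 1 of 7, 1 of 7, 0 of 6, 0 of 5 and 0 of 6 in the same order, against 4.58%. Between aged ENR and young STD mice it was 2 of 5 granule neuron regions (both higher in aged ENR) and 3 of 7 CA pyramidal neuron regions (1 higher), and 0 in the other lists, against 5.16%. Promoter levels ran from 1.30% to 2.01% at the granule neuron markers (2 promoters) and from 4.004% to 34.9% at the astrocyte markers (3 promoters). They ran from 1.74% to 12.1% at the oligodendrocyte and from 2.48% to 10.6% at the endothelial markers, and the 1 microglia promoter was at 24.9%. Those of CA pyramidal neuron markers, a cell type outside the dentate gyrus, ran from 1.10% to 47.1%. Low promoters thus occurred at markers of several cell types, and promoter methylation alone could not check the dissection. The part of cell makeup in the differences above was not tested.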

How the data were processed

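The authors deposited, in one table, the percent methylation of each CpG in each mouse, strands apart and without read numbers. Their notes name Trim Galore 0.4.0, cutadapt 1.8.1, Bismark 0.16.1, methylKit 1.5.2 and mm10. Positions under 10 reads or above the 99.9th percentile of coverage had been removed by the authors, as had those measured in fewer than 3 mice of a group. Depth was therefore unknown, and no counting intervals were given. The read-level test of the study could not be run. Instead, the percentages were fitted with limma 3.58.1 (R 4.3.3), all 24 mice and 3 groups in one group-means model, moderated variances, Benjamini-Hochberg over all 694379 CpGs, calls at adjusted p under 0.05. The 25-point criterion was applied to group means without a test.

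Region values were the mean deviation of the covered CpGs from their CpG mean plus the mean of the CpG means, for regions with at least 3 CpGs, mice with at least 2 covered CpGs and at least 3 mice per group (32180 regions). Flanks were described only. Permutation tests over mice were exact, two-sided and unadjusted. The code was tested on simulated data. Mice of the same number did not deviate together (mean r = -0.00387 over 24 pairs), so that no block was used. At CpGs with a level of 10 to 90%, no pair of mice shared identical values at more than 42.9%. Named CpGs were the 4 with the smallest unadjusted p in each of aging and ENR with at least 5 mice per group, those in all 24 mice, and any with an adjusted p under 0.05. The lists were stem cell, progenitor and new and granule neuron factors, and markers of granule, CA pyramidal, oligodendrocyte, astrocyte, microglia and endothelial cells. Members and lists were chosen with earlier results of these data known. Python 3.11.15, numpy 2.4.6, pandas 2.3.3, scipy 1.17.1 and matplotlib 3.10.9 were used.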

Additional observations from a re-analysis of the deposited data

Results flagged for a closer look

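Dixon's 95% critical value is reached by chance in about 1 in 20 groups only where the values are normally distributed. Many of the 16 regions lie near 0 and some groups have few mice, so that a count of groups cannot show an excess over chance. In 12 of 48 group values of these regions, the highest or lowest mouse stood apart from the rest of its group by this critical value. Among Eomes and Tbr1 these were Eomes body in young STD mouse 4 (37.1%, the others 71.4% to 89.7%) and in aged ENR mouse 6 (137%, the others 71.5% to 79.0%), each with 2 covered CpGs. Tbr1 promoter stood apart in aged ENR mouse 5 (20.8%, the others -1.70% to 4.42%, 5 covered CpGs), and Tbr1 body in young STD mouse 6 (15.7%, the others 0 to 2.44%) and aged STD mouse 6 (20.2%, the others 0 to 8.33%). In the stem cell factors they were Sox2 promoter in young STD mouse 5 (6.69%, the others -0.40% to 1.86%), Pax6 promoter in aged STD mouse 5 (-1.084%, the others 10.96% to 20.3%) and Pax6 body in aged STD mouse 4 (88.3%, the others 5.96% to 31.6%, 8 covered CpGs). In the neuronal factors they were Neurod1 body in aged ENR mouse 6 (10.9%, the others 0 to 0.96%), Neurod2 promoter in young STD mouse 5 (14.9%, the others -1.03% to 4.30%), and Sox11 promoter in young STD mouse 1 (4.06%, the others -0.03% to 1.88%) and aged STD mouse 6 (2.91%, the others 0.0038% to 1.00%).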

How the results depend on the processing

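In each comparison, limma called 0 CpGs of the 9 genes with the arcsine scale, with a variance trend and with 5 or more mice required in each group. It called 0 regions with a variance trend, plain means, at least 5 CpGs and narrower or wider promoters, and 0 CpGs and 0 regions in all 24 runs that left out 1 mouse. Leaving out 1 mouse moved the CpGs over 25 points to 39 to 51 with aging, 34 to 47 with ENR and 33 to 45 between aged ENR and young STD mice, of 542 to 617 CpGs tested. With the replicate number as a block, although the numbers did not pair the mice, 3 CpGs were called with aging, 1 with ENR and 2 between aged ENR and young STD mice (0.0864%, 0.0768% and 0.0724% of all CpGs), and 0 regions. Requiring 5 mice in each group, 6, 5 and 8 of 191 CpGs passed 25 points (5.15%, 4.72% and 4.82% of all CpGs). A criterion of 15 points gave 100, 100 and 89 CpGs (20.6%, 19.4% and 19.5% of all), and one of 40 points 13, 7 and 12 (2.63%, 2.27% and 2.4%). Group medians gave 44, 38 and 39 (9.12%, 8.44% and 8.87% of all), strands averaged 39, 34 and 31 of 546 (9.14%, 8.37% and 8.43%), and spans without flanks 38, 30 and 28 of 453 (8.55%, 7.81% and 7.92% of CpGs inside any gene). Of 1482 region differences listed under an alternative, 1412 kept their sign and 0 had an adjusted p under 0.05. They include the permutation tests, which reuse the main difference, cannot change its sign and have no adjusted p. They also include runs that left out a mouse of the group outside the comparison. The share that kept its sign is therefore no measure of stability. Of the 48 differences of the 16 regions, 18 changed sign when some single mouse was left out. Single-CpG values with few mice and unknown depth limit all of these counts.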
